A study of Mus musculus with 86 samples.

Results

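The kidney response to obstruction was described in mice given UNC569, a small-molecule inhibitor of the receptor tyrosine kinase MERTK. Its members were 7 libraries of obstructed kidney, set against 3 libraries of sham-operated kidney from mice that also got UNC569, so 10 of the 86 samples of the series. All libraries were mouse whole-kidney RNA from animals labelled wild type, and the remaining samples of the series, other than the DMSO arm below, were not used here. The groups were unilateral ureteral obstruction (UUO) with UNC569 (n = 7), sham surgery with UNC569 (n = 3), UUO with DMSO (n = 4) and sham surgery with DMSO (n = 3), where DMSO is the solvent. The drug or its solvent was injected in every group, so the sham kidneys of the main comparison carry the inhibitor too. The labels give no strain, age, sex, dose or time after surgery, and 8 UUO samples with UNC569 are labelled for 7 data columns, so columns were tied to groups and not to single samples. Nothing says beyond the word bioreplicate that libraries are separate animals, so p-values measure the spread between these libraries, which may be technical.

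In unilateral ureteral obstruction the ureter of 1 kidney is tied. Urine pressure stretches the tubules, tubule cells lose their transporters and switch on injury genes, macrophages enter, and fibroblasts become myofibroblasts that lay down collagen. MERTK belongs to the TAM family of receptors with AXL and TYRO3. The bridging proteins GAS6 and protein S link these receptors to dying cells, and macrophages use MERTK to engulf such cells. UNC569 blocks the kinase activity of the protein, so the Mertk transcript is no check of its action.

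Values are FPKM as deposited, which are fragments scaled to the length of the transcript and to the mapped fragments of the library. For the 7 obstructed kidneys the lowest, the median and the highest value are given, and for the sham kidneys all 3 values. Differences are obstructed minus sham on the log2(FPKM + 1) scale with their standard error (SE), which understates the change of low genes. P-values are from limma with Benjamini-Hochberg adjustment over all 15338 genes tested, and passing means an adjusted p below 0.05. The filter on low values asked for 1 FPKM or more in at least 3 libraries. Some named genes that passed met it only with the obstructed kidneys, which fixes their direction. These are Havcr1, Serpina10, Sprr2f, Ltbp2, Timp1, Trem2, Ccl2, Cxcl2, Cxcl5, Cd44, Lif, Cd2, Cd4, Lck and S100a9. Others are Krt20, Krt5, Sox9, Hk2, Bmp2, Grem1, Areg and Aurkb. Pvalb, Mas1, Ttr, Plin1 and Hrg met it only with the sham kidneys. No result is read from the obstruction calls or the separation of these genes.

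The libraries of the obstructed and the sham kidneys differed in make-up. Summed FPKM ranged from 431856 to 461081 in the obstructed kidneys and from 793081 to 1078591 in the sham kidneys. Mitochondrially encoded genes held 9.10 ± 1.78% of this sum in the obstructed kidneys and 28.9 ± 6.56% in the sham kidneys (SD, n = 7 and 3). An exact two-sided permutation test gave p = 0.00833, the smallest this design allows. Genes at 1 FPKM or more numbered 13585 to 13889 in the obstructed and 12943 to 13516 in the sham kidneys. The deposited kidney table gives no read counts, so depth is unknown. Rps27, a ribosomal protein gene that every cell uses, is listed at 0 in all these libraries, so a value of 0 is written here as listed at 0.

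With UNC569, 4224 genes (27.5%) passed as higher in obstructed kidneys and 5294 (34.5%) as lower, together 62.1% of the genes tested. Median-of-ratios scaling, which sets the scale of a library by its median gene, gave 5352 higher and 4217 lower, so the split between directions depends on the scaling. The median log2 difference of all genes was -0.074 as deposited and 0.12 after that scaling. Values of the 7 obstructed kidneys lay wholly above the 3 sham values for 3239 genes (21.1%) and wholly below for 4471 (29.1%). Against this background of broad change, the counts below are of genes in lists by function. They are to be read beside the 27.5% higher and 34.5% lower of all genes.

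Among abundant genes without overlap of the groups, the largest rise was in Havcr1, which encodes KIM-1, the injury receptor of the proximal tubule that binds dying cells. Havcr1 stood at 212, 319 and 389 FPKM in obstructed kidneys, against 0.995, 0.909 and 0.713 FPKM in sham kidneys, a log2 difference of 7.30 ± 0.23, adjusted p = 2.97e-13. Lcn2, encoding the iron-siderophore carrier lipocalin 2 of stressed tubules, stood at 104, 151 and 244 FPKM in obstructed kidneys, against 1.72, 4.30 and 1.74 FPKM in sham kidneys (5.59 ± 0.31, adjusted p = 1.93e-10). Both were chosen from genes without overlap of the groups, so their separation is no result. Vcam1, an adhesion molecule for leukocytes, had 71.2, 85.3 and 118 FPKM in obstructed kidneys, against 2.28, 1.57 and 0.923 FPKM in sham kidneys, with a difference of 5.20 ± 0.21, adjusted p = 4.97e-12. Thy1, a surface protein of fibroblasts and T cells, had 42.7, 104 and 173 FPKM in obstructed kidneys, against 1.53, 2.97 and 1.28 FPKM in sham kidneys (5.03 ± 0.36, adjusted p = 2.88e-09). Abp1, the histamine-degrading diamine oxidase, had 126, 184 and 226 FPKM in obstructed kidneys, against 1.03, 3.05 and 2.24 FPKM in sham kidneys (5.86 ± 0.19, adjusted p = 4.70e-13). The same choice fixed the separation of Abp1 and of the other genes in this paragraph. Serpina10, a secreted serpin that inhibits coagulation factor X with protein Z, differed by 4.95 ± 0.18, adjusted p = 1.56e-12. Sprr1a, a cornified envelope protein of stressed epithelium, had 177, 239.7 and 358 FPKM in obstructed kidneys, against 0.429, 16.9 and 7.71 FPKM in sham kidneys. Sprr2f, of the same family, had 46.9, 48.9 and 78.1 FPKM in obstructed kidneys and was listed at 0 in all 3 sham kidneys, so no fold is given. The obstructed values of both Sprr genes spread widely. Havcr1, Serpina10 and Sprr2f met the filter on low values only with the obstructed kidneys, which fixes their direction.

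The 8 largest falls included transporters and enzymes of the proximal tubule. Slc22a7, an organic anion transporter, had 0.281, 0.579 and 1.82 FPKM in obstructed kidneys, against 118, 203 and 159.6 FPKM in sham kidneys (-6.56 ± 0.46, adjusted p = 2.25e-09). Slc22a6 and Slc22a8, the transporters OAT1 and OAT3 that secrete drugs and urate, differed by -5.79 ± 0.44, adjusted p = 5.83e-09, and by -5.78 ± 0.56, adjusted p = 8.77e-08. The obstructed kidneys spread over a wide range for Slc22a7. G6pc, the last enzyme of glucose release, had 1.98, 4.64 and 10.6 FPKM in obstructed kidneys, against 433, 258 and 344 FPKM in sham kidneys (-6.02 ± 0.43, adjusted p = 3.00e-09). Slc7a13, an amino acid transporter of the straight proximal tubule, had 3.88, 6.04 and 9.69 FPKM in obstructed kidneys, against 380.3, 538 and 438 FPKM in sham kidneys (-6.04 ± 0.46, adjusted p = 5.40e-09). Ugt3a1, a glycosyltransferase, differed by -6.05 ± 0.51, adjusted p = 1.60e-08. Calb1, the calcium buffer calbindin of the distal tubule, had 0.670, 1.31 and 1.98 FPKM in obstructed kidneys, against 117, 146 and 163 FPKM in sham kidneys (-5.95 ± 0.39, adjusted p = 1.21e-09). D630029K05Rik, whose role is not given here, differed by -6.18 ± 0.44, adjusted p = 2.92e-09. These genes too were chosen from those without overlap of the groups, so their separation is no result.

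**Figure D1:**
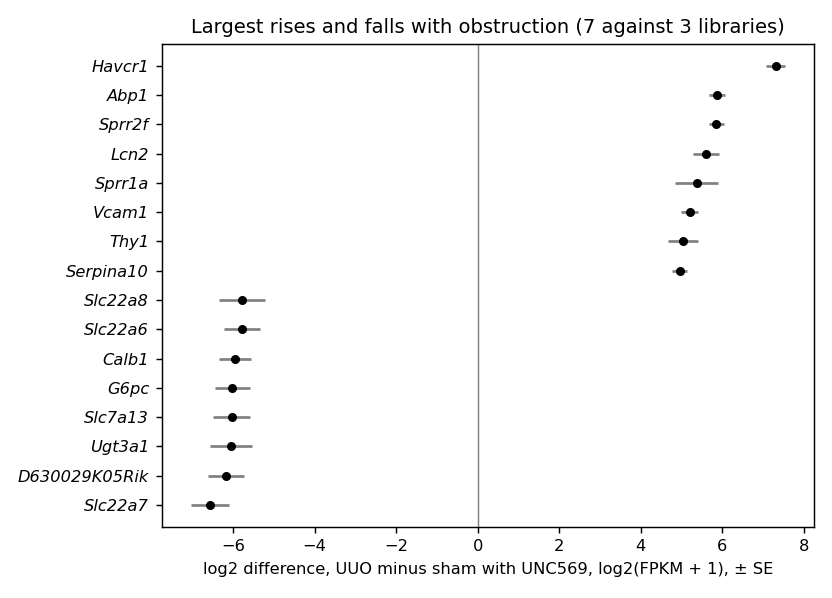
Log2 differences (obstructed minus sham, both with UNC569, log2(FPKM + 1)) for the 16 genes with the largest rises and falls; bars are SE, on the horizontal axis. Havcr1 lies farthest to the right at 7.30 and Slc22a7 farthest to the left at -6.56. Sprr2f is listed at 0 in all sham kidneys, so its place depends on the pseudocount.

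Scar matrix rose in the obstructed kidneys. All 14 of 14 fibrillar and interstitial collagen genes passed as higher, with a median log2 difference of 2.61, against -0.074 for all genes. Col1a1, a chain of the main scar collagen, had 41.5, 106 and 211 FPKM in obstructed kidneys, against 4.27, 3.61 and 2.30 FPKM in sham kidneys (4.53 ± 0.37, adjusted p = 1.09e-08). Col3a1, a chain of the thinner reticular fibres, had 40.2, 114 and 184 FPKM in obstructed kidneys, against 5.09, 5.61 and 3.48 FPKM in sham kidneys (4.13 ± 0.36, adjusted p = 2.97e-08). Col16a1, a fibril-associated collagen, had 22.2, 36.8 and 50.1 FPKM in obstructed kidneys, against 5.94, 4.57 and 2.61 FPKM in sham kidneys (2.87 ± 0.25, adjusted p = 2.14e-08). The groups did not overlap for Col1a1, Col3a1 or Col16a1, and the obstructed values of Col1a1 spanned a wide range. As these are whole kidneys, more cells of a type and more RNA per cell cannot be told apart, here or for any list below.

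Of 20 basement membrane genes, 14 rose and 2 fell (median 1.31). Col18a1, the precursor of endostatin, differed by 1.86 ± 0.14, adjusted p = 4.70e-09. Col4a1 and Col4a2, the collagen IV chains of all basement membranes, differed by 1.87 ± 0.15, adjusted p = 1.16e-08, and by 2.02 ± 0.18, adjusted p = 3.59e-08. Col4a3 and Col4a4, the chains of the glomerular basement membrane, moved the other way. Col4a3 had 8.99, 12.7 and 16.2 FPKM in obstructed kidneys, against 53.9, 35 and 34.4 FPKM in sham kidneys (-1.61 ± 0.16, adjusted p = 1.68e-07). Col4a4 had 4.95, 5.90 and 8.65 FPKM in obstructed kidneys, against 25.2, 17.5 and 18.1 FPKM in sham kidneys (-1.53 ± 0.19, adjusted p = 1.81e-06). The 2 collagen IV pairs therefore lay on opposite sides of 0 in the same kidneys.

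Matricellular and provisional matrix proteins rose in 18 of 20 cases, with none lower (median 2.14). Spp1, osteopontin, which attracts macrophages, had 9671, 11457 and 13792 FPKM in obstructed kidneys, against 767, 748 and 747 FPKM in sham kidneys (3.92 ± 0.18, adjusted p = 2.56e-11). Ltbp2, a microfibril protein, had 16.3, 24.5 and 33.1 FPKM in obstructed kidneys, against 0.903, 0.0841 and 0 FPKM in sham kidneys (4.32 ± 0.21, adjusted p = 4.32e-11). Emilin1, an elastic-fibre glycoprotein, differed by 3.06 ± 0.28, adjusted p = 4.46e-08. No obstructed value overlapped the sham values for Spp1 and Emilin1. Eln, elastin (0.31 ± 0.27, adjusted p = 0.326), and Igfbp7 (-0.16 ± 0.12, adjusted p = 0.254) did not pass.

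Of 20 matrix enzymes and their inhibitors, 18 rose and 1 fell (median 2.36). Mmp14, a membrane-bound collagenase, had 51, 80.1 and 126 FPKM in obstructed kidneys, against 6.32, 4.30 and 5.52 FPKM in sham kidneys (3.64 ± 0.24, adjusted p = 9.84e-10). Adamts1, a proteoglycan-cutting protease, differed by 2.08 ± 0.12, adjusted p = 2.35e-10. Timp3, the matrix-bound inhibitor of these proteases, was the member that fell, with 77.5, 109.6 and 119 FPKM in obstructed kidneys, against 819, 597 and 675 FPKM in sham kidneys (-2.72 ± 0.16, adjusted p = 3.30e-10). Timp1, a soluble inhibitor, had 5.07, 14.5 and 31.4 FPKM in obstructed kidneys and was listed at 0 in all 3 sham kidneys, so no fold is given (adjusted p = 7.82e-08). Timp1 passed the filter on low values only through obstructed kidneys, which fixes its direction, so its call is not read against that of Timp3.

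TGF-beta is the cytokine that drives fibroblasts to make collagen. Of 18 genes of its ligands, receptors, signal carriers and targets, 13 rose and none fell (median 0.82). The ligand Tgfb1 had 38.7, 41.9 and 58.1 FPKM in obstructed kidneys, against 11.6, 6.54 and 5.73 FPKM in sham kidneys (2.46 ± 0.20, adjusted p = 1.53e-08). Among targets, Tgfbi, an adhesion protein of the matrix, differed by 3.13 ± 0.18, adjusted p = 2.89e-10. Smad7, the inhibitor of the pathway, did not pass (-0.20 ± 0.17, adjusted p = 0.342), nor did Inhba, a subunit of activins (1.18 ± 0.55, adjusted p = 0.0705). Inhba passed as higher with a pseudocount of 0.1 (2.58, adjusted p = 0.0246), without obstructed library 4 (1.35, adjusted p = 0.0425), without library 5 (1.31, adjusted p = 0.0498) and without both (1.54, adjusted p = 0.0228), with an adjusted p of 0.0228 to 0.180 over all alternatives. All obstructed kidneys exceeded all sham kidneys for Tgfb1.

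Of 18 genes of myofibroblasts and fibroblasts, 17 rose and none fell (median 2.14). Pdgfb, a growth factor for fibroblasts and pericytes, differed by 2.55 ± 0.18, adjusted p = 3.08e-09, and S100a4, a calcium-binding protein of fibroblasts and macrophages, by 3.15 ± 0.34, adjusted p = 3.74e-07. Acta2, the smooth muscle actin of myofibroblasts, had 28.2, 81 and 192 FPKM in obstructed kidneys, against 15.7, 14.4 and 13.1 FPKM in sham kidneys (2.25 ± 0.47, adjusted p = 4.52e-04). The groups did not overlap for Acta2.

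**Figure D2:**
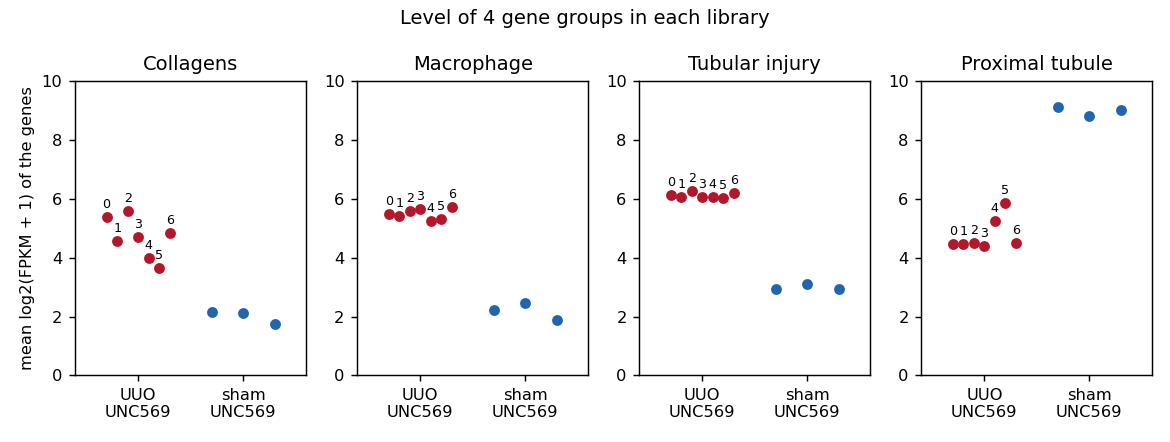
Level of 4 gene groups (mean log2(FPKM + 1) of all genes listed in each, tested or not, vertical axis) in every library with UNC569. Each point is a library, obstructed on the left with its number and sham on the right. Obstructed libraries 4 and 5 have the lowest collagen and the highest proximal tubule levels of the 7.

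The 7 obstructed kidneys were not alike. On the first principal component of all 4 groups (68.2% of the variance), obstructed libraries 4 and 5 lay at 36.1 and 21.8, nearer to the sham kidneys (-107 to -96.8) than the other 5 (55.5 to 58.6). Their mean collagen level was 3.97 and 3.66 on the log2(FPKM + 1) scale, against 4.58 to 5.57 in the other 5 obstructed kidneys and 1.76 to 2.16 in the sham kidneys. Their mean proximal tubule level was 5.24 and 5.87, against 4.40 to 4.50 and 8.82 to 9.12. These 2 libraries thus stood between the other obstructed kidneys and the sham kidneys for both groups of genes. Macrophage genes differed less among the 7, with list means between 5.23 and 5.71, against 1.89 to 2.46 in sham kidneys. Without libraries 4 and 5, a set left out after the values were seen, 4363 genes passed as higher and 5198 as lower.

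Macrophage genes rose throughout. All 21 of 21 passed as higher, with a median log2 difference of 3.44, and none had overlapping groups. C1qa, a subunit of the complement recognition protein C1q that macrophages make, had 480.4, 639.5 and 704 FPKM in obstructed kidneys, against 21.4, 27.4 and 12.6 FPKM in sham kidneys (4.83 ± 0.20, adjusted p = 7.25e-12). C1qc, another subunit, had 296, 383 and 442 FPKM in obstructed kidneys, against 16.1, 14.2 and 8.08 FPKM in sham kidneys (4.82 ± 0.17, adjusted p = 1.27e-12). Cd14, the co-receptor for lipopolysaccharide, had 101, 111 and 119 FPKM in obstructed kidneys, against 3.83, 4.95 and 4.73 FPKM in sham kidneys (4.34 ± 0.12, adjusted p = 1.24e-13). All 3 genes were several-fold higher in each obstructed kidney than in any sham kidney.

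The lipid-associated macrophage list was mixed, with 8 of 16 higher and 3 lower (median 0.49). Apoe, a carrier of lipids, had 5908, 6197 and 7844 FPKM in obstructed kidneys, against 468, 539 and 516 FPKM in sham kidneys (3.68 ± 0.16, adjusted p = 1.06e-11). Every obstructed kidney had several times the Apoe level of any sham kidney. Lgals3, galectin 3, differed by 2.19 ± 0.12, adjusted p = 1.26e-10. Trem2, the lipid-sensing receptor of these cells, differed by 3.67 ± 0.26, adjusted p = 2.22e-09. It met the filter on low values only with the obstructed kidneys. The members that fell are not limited to macrophages. Lpl, lipoprotein lipase, had 18.8, 26.9 and 41.1 FPKM in obstructed kidneys, against 587, 477 and 509 FPKM in sham kidneys (-4.18 ± 0.23, adjusted p = 1.37e-10), with no overlap of the groups. Lipa, the lysosomal lipase, differed by -2.36 ± 0.22, adjusted p = 4.47e-08, and Cd63, a tetraspanin of lysosomes, by -0.92 ± 0.18, adjusted p = 2.90e-04.

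The target family of the drug was split. Axl, a TAM receptor raised in inflamed tissue, had 31.8, 55.8 and 60.5 FPKM in obstructed kidneys, against 8.16, 7.53 and 3.72 FPKM in sham kidneys (2.80 ± 0.22, adjusted p = 6.85e-09). Tyro3, the third TAM receptor, had 2.66, 3.33 and 4.28 FPKM in obstructed kidneys, against 0.810, 1.37 and 1.42 FPKM in sham kidneys (0.97 ± 0.17, adjusted p = 7.92e-05). Pros1, the ligand protein S, had 17.1, 30.3 and 43.2 FPKM in obstructed kidneys, against 7.48, 4.83 and 4.92 FPKM in sham kidneys (2.14 ± 0.25, adjusted p = 7.21e-07). All 3 rose without overlap of the groups. Mertk itself, on chromosome 2 (chr2:128698956-128802894) of GRCm38 by the GENCODE annotation, had 9.40, 12 and 18.3 FPKM in obstructed kidneys, against 17, 16.2 and 17.3 FPKM in sham kidneys, and its groups overlapped because the highest obstructed kidney exceeded all sham kidneys. Its log2 difference was -0.41 ± 0.16, adjusted p = 0.0351. The Mertk call was lost under median-of-ratios scaling, in a fit of the UNC569 groups alone, without obstructed libraries 4 and 5 together and without obstructed UNC569 library 0, 2, 4 or 6 or sham UNC569 library 0, 1 or 2 (at -0.44 to -0.19 there, with an adjusted p of 0.00535 to 0.324 over all alternatives). Gas6, the ligand of all 3 receptors, had 148, 190.0 and 207 FPKM in obstructed kidneys, against 167, 151 and 155 FPKM in sham kidneys and did not pass (0.22 ± 0.12, adjusted p = 0.132). Gas6 passed as higher after median-of-ratios scaling (0.45, adjusted p = 0.00339; over all alternatives the adjusted p was 0.00339 to 0.295). The Gas6 groups overlapped.

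In the wider list of TAM and dead-cell clearance genes, 14 of 20 rose and 2 fell (median 1.09). Rac2, the GTPase that moves leukocyte membranes, differed by 2.85 ± 0.21, adjusted p = 3.99e-09, and Mfge8, a bridging protein to integrins, by 1.68 ± 0.15, adjusted p = 4.85e-08. Cd36, the scavenger receptor and fatty acid carrier also made by tubule cells, had 2.37, 4.41 and 8.99 FPKM in obstructed kidneys, against 132, 103 and 83.6 FPKM in sham kidneys (-4.23 ± 0.30, adjusted p = 2.72e-09), with every obstructed kidney below every sham kidney.

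**Figure D3:**
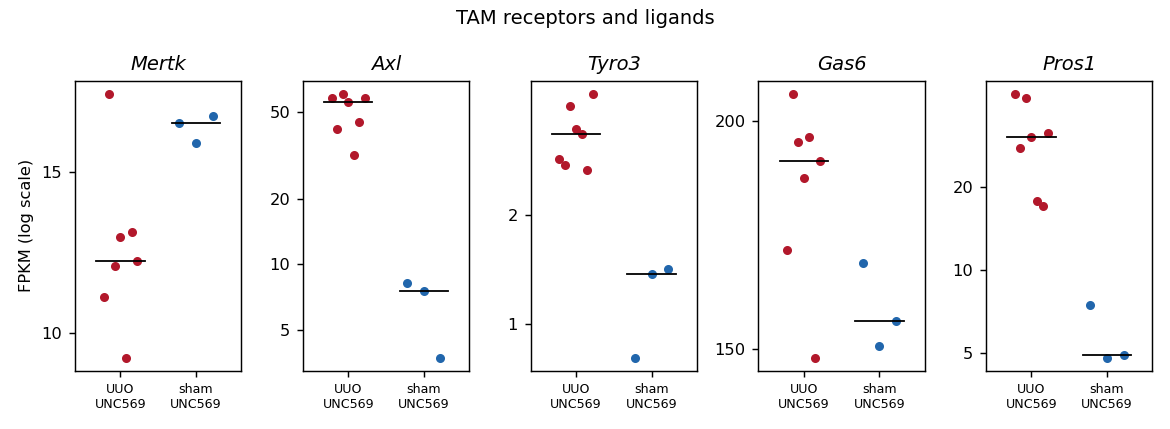
FPKM (log axis) of the TAM receptors and their ligands in each library with UNC569; obstructed kidneys stand left of sham kidneys and the short line is the group median. Axl, Tyro3 and Pros1 separate without overlap, while the groups of Mertk and Gas6 overlap.

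Complement genes rose in 13 of 17 cases and fell in 3 (median 2.87). C3, the central component, differed by 3.23 ± 0.37, adjusted p = 6.28e-07, and C1qb by 4.29 ± 0.21, adjusted p = 5.12e-11. The falling members were the surface inhibitor Cd55 (-1.19 ± 0.25, adjusted p = 4.72e-04), its relative Cr1l (-0.73 ± 0.18, adjusted p = 0.00201) and factor B, Cfb (-0.97 ± 0.36, adjusted p = 0.0259). The Cfb call was lost under median-of-ratios scaling and without sham UNC569 library 0 or 2 (at -0.93 to -0.74 there, with an adjusted p of 0.0109 to 0.0831 over all alternatives).

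Chemokines and their receptors rose in 21 of 22 cases with none lower (median 3.02). Cxcl16, a membrane-bound chemokine for T cells, had 132, 157 and 170.2 FPKM in obstructed kidneys, against 30.2, 29.7 and 30.8 FPKM in sham kidneys (2.30 ± 0.11, adjusted p = 5.68e-11). Ccl2, which calls monocytes, had 23.3, 44 and 59.7 FPKM in obstructed kidneys, against 2.01, 0 and 0.225 FPKM in sham kidneys (4.69 ± 0.35, adjusted p = 4.67e-09). Cxcl2, a neutrophil chemokine, had 5.86, 7.79 and 10.3 FPKM in obstructed kidneys and was listed at 0 in all 3 sham kidneys, so no fold is given (adjusted p = 9.51e-10). It passed the filter on low values only through obstructed kidneys, which fixes its direction. Cxcl5, of the same family and with the same limit, differed by 3.10 ± 0.23, adjusted p = 3.59e-09. Cxcl12 did not pass (-0.32 ± 0.45, adjusted p = 0.560). The obstructed values of Cxcl16 all exceeded the sham values, and 1 sham value of Ccl2 is listed at 0.

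Genes of the NF-kB, IL-1, IL-6 and TNF families rose in 20 of 21 cases and fell in none (median 2.44). Cd44, the hyaluronan receptor, had 17.8, 25.5 and 28.5 FPKM in obstructed kidneys, against 0.302, 0.419 and 0.182 FPKM in sham kidneys (4.24 ± 0.16, adjusted p = 2.74e-12). Lif, a cytokine of the IL-6 family, had 7.97, 10.4 and 13.9 FPKM in obstructed kidneys, against 0.162, 0.248 and 0.314 FPKM in sham kidneys (3.21 ± 0.18, adjusted p = 2.17e-10). Il18, which healthy tubules make, did not pass (-0.11 ± 0.33, adjusted p = 0.786). Cd44 and Lif met the filter on low values only with the obstructed kidneys, which fixes their direction, so no result is read from their calls.

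Of 14 T and NK cell genes tested, 13 passed as higher (median 1.72). The whole list summed to 8.45, 6.54 and 5.21 FPKM in the sham kidneys. Many members thus passed the filter on low values mainly through the obstructed kidneys. This fixes their direction, so no count is read from them. Cd4, the co-receptor of helper T cells, had 4.41, 7.02 and 7.45 FPKM in obstructed kidneys, against 0.0944, 0.232 and 0.163 FPKM in sham kidneys (2.63 ± 0.15, adjusted p = 3.15e-10). Lck, the T cell kinase, differed by 2.90 ± 0.31, adjusted p = 2.63e-07, and Cd2, a T cell adhesion protein, by 2.15 ± 0.27, adjusted p = 2.05e-06. Cd4, Lck and Cd2 met the filter on low values only with the obstructed kidneys, so no result is read from their calls. B and plasma cell genes rose in 6 of 7 cases (median 1.80), among them Igkc (3.47 ± 0.43, adjusted p = 1.84e-06) and Ighm (2.29 ± 0.18, adjusted p = 9.97e-09), antibody chain genes, and Cd79b (1.80 ± 0.20, adjusted p = 4.51e-07). All 12 of 12 genes of MHC class II and dendritic cells rose (median 2.27). H2-Ab1, which presents antigen to CD4 T cells, had 717, 857 and 992 FPKM in obstructed kidneys, against 54.8, 69.5 and 37.4 FPKM in sham kidneys (4.00 ± 0.21, adjusted p = 7.52e-11). H2-Aa and H2-Eb1 differed by 3.92 ± 0.21, adjusted p = 1.03e-10, and by 4.20 ± 0.23, adjusted p = 1.22e-10. Of 12 neutrophil genes, 3 passed the filter on low values. They passed it mainly through the obstructed kidneys, which fixes their direction, so no count is read from them. S100a9, a subunit of calprotectin, had 7.40, 14.5 and 25.4 FPKM in obstructed kidneys, against 0, 0 and 0.880 FPKM in sham kidneys (3.59 ± 0.47, adjusted p = 3.39e-06), and it was listed at 0 in 2 of the sham kidneys.

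Interferon-stimulated genes rose in 20 of 20 cases (median 1.74). Bst2, tetherin, which holds budding viruses at the membrane, had 64.1, 88.5 and 125 FPKM in obstructed kidneys, against 11, 12.8 and 9.17 FPKM in sham kidneys (2.86 ± 0.17, adjusted p = 4.75e-10). Gbp2, a guanylate-binding GTPase, had 18.2, 23.9 and 32.4 FPKM in obstructed kidneys, against 2.72, 4.02 and 1.76 FPKM in sham kidneys (2.78 ± 0.28, adjusted p = 1.44e-07). Oasl2, of the oligoadenylate synthetase family, differed by 2.70 ± 0.22, adjusted p = 1.43e-08. Isg15, a ubiquitin-like modifier, had 63.6, 93.6 and 227 FPKM in obstructed kidneys, against 10.6, 19.6 and 10.5 FPKM in sham kidneys (3.03 ± 0.33, adjusted p = 3.59e-07). Each of these genes was higher in all obstructed kidneys than in any sham kidney.

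Promoter windows of these genes were read to show where an interferon-stimulated response element (ISRE) lies. The windows run from 250 bases before to 50 bases after the RefSeq start of transcription on GRCm38.p6. The ISRE letters, a pair of GAAA with 2 bases between, searched on both strands, were in 9 of 15 interferon-stimulated genes with an entry (60%), against 3.993% of 27025 genes with one. The following lines give the windows of Bst2, Gbp2 and Isg15 with the ISRE letters in capitals, written as a pair of TTTC where the match is on the other strand and running together where matches overlap.
Bst2: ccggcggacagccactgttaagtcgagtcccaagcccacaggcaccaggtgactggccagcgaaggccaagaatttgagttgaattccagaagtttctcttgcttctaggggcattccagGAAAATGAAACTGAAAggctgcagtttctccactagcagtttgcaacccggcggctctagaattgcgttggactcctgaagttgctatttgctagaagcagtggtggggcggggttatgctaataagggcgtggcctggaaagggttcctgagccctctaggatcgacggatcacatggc
Gbp2: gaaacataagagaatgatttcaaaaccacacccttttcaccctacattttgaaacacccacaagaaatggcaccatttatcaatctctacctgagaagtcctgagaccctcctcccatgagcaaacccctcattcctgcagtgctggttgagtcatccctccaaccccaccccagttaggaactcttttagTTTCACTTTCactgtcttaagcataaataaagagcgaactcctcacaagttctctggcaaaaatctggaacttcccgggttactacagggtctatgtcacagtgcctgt
Isg15: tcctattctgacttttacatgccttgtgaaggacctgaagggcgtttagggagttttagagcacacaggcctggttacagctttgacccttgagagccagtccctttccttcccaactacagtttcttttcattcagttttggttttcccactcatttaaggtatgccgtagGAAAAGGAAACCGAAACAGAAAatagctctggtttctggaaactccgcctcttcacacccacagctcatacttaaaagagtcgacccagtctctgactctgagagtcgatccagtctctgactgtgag

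These windows stood at chr8:71537423-71537722 (- strand), at chr3:142620413-142620712 (+ strand) and at chr4:156200769-156201068 (- strand). The NF-kB site, GGGA and TTTCC with 1 base between on either strand, was in 3 of 20 genes of the NF-kB list with an entry (15%), against 0.4662% of all. The HNF1 site, GTTAAT and ATT with 1 base between on either strand, was sought for the proximal tubule and was in 0 of 18 genes, against 0.4699% of all. A match is a run of letters and not a measured binding site, and no binding data were used.

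Tubular injury genes rose in all 20 of 20 cases (median 2.86). Besides Havcr1, Lcn2, Vcam1 and Cd44 above, Krt20 differed by 4.27 ± 0.20, adjusted p = 3.98e-11 and Sox9, a transcription factor of repairing tubules, by 2.81 ± 0.18, adjusted p = 7.94e-10. Havcr1, Cd44, Krt20 and Sox9 met the filter on low values only with the obstructed kidneys, so no result is read from their calls. The rise of the list ran beside the loss of segment markers.

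All 22 of 22 proximal tubule genes fell, with a median log2 difference of -4.46. Gatm, the first enzyme of creatine synthesis, had 12, 15.1 and 29.7 FPKM in obstructed kidneys, against 526, 358 and 383 FPKM in sham kidneys (-4.59 ± 0.30, adjusted p = 9.28e-10). Pck1, a key enzyme of glucose synthesis, had 22.6, 46.3 and 97.4 FPKM in obstructed kidneys, against 2414, 1828 and 2104 FPKM in sham kidneys (-5.56 ± 0.42, adjusted p = 4.77e-09). Lrp2, the protein uptake receptor megalin, had 6.41, 7.49 and 19.7 FPKM in obstructed kidneys, against 120.4, 116 and 133 FPKM in sham kidneys (-3.63 ± 0.27, adjusted p = 4.86e-09). No obstructed kidney reached the sham range for these genes.

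Of 18 genes of the thick limb and distal tubule, 14 fell and 2 rose (median -1.72). Egf, the growth factor made by these segments, had 2.75, 3.70 and 6.12 FPKM in obstructed kidneys, against 222, 242 and 225 FPKM in sham kidneys (-5.57 ± 0.23, adjusted p = 6.06e-12). Pvalb, the calcium-binding parvalbumin of the distal convoluted tubule, differed by -3.61 ± 0.15, adjusted p = 6.06e-12. Umod, uromodulin, the main protein of normal urine, had 215, 500.5 and 826 FPKM in obstructed kidneys, against 366, 1099 and 818 FPKM in sham kidneys and did not pass (-0.65 ± 0.40, adjusted p = 0.168). The Umod groups overlapped over most of their range. Without sham UNC569 library 0 it passed as lower (-1.11, adjusted p = 0.0349; over all alternatives the adjusted p was 0.0349 to 0.57). Cldn16, a claudin for magnesium uptake, differed by 0.60 ± 0.23, adjusted p = 0.0344. This Cldn16 call was lost with no filter on low values, in a fit of the UNC569 groups alone and without obstructed UNC569 library 0, 2 or 4 or sham UNC569 library 0 (at 0.40 to 0.60 there, with an adjusted p of 0.0112 to 0.207 over all alternatives). Trpm6, a magnesium channel, differed by 0.50 ± 0.16, adjusted p = 0.0134. The Trpm6 call was lost without sham UNC569 library 1 or 2 (at 0.40 to 0.42 there, with an adjusted p of 0.00178 to 0.0860 over all alternatives).

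Of 18 collecting duct genes, 16 fell and none rose (median -1.12). Aqp3, the water channel of the basolateral side, had 4.15, 5.94 and 11.9 FPKM in obstructed kidneys, against 81.7, 118 and 148 FPKM in sham kidneys (-3.88 ± 0.28, adjusted p = 3.21e-09). Aqp2, the vasopressin-controlled water channel, had 26.8, 39.8 and 131 FPKM in obstructed kidneys, against 265, 329 and 240.1 FPKM in sham kidneys (-2.42 ± 0.57, adjusted p = 0.00130). Slc4a1, the anion exchanger of acid-secreting cells, differed by -3.24 ± 0.22, adjusted p = 1.39e-09, and Scnn1a, a subunit of the sodium channel, by -2.07 ± 0.16, adjusted p = 9.06e-09. Aqp3 separated the groups by a wider margin than Aqp2.

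Of 14 podocyte genes, 4 rose and 4 fell, shares near those of all genes (27.5% and 34.5%; median -0.020, or 0.19 after median-of-ratios scaling), and without sham UNC569 library 1 only 2 rose. Nphs1, nephrin of the slit diaphragm, had 1.95, 2.78 and 5.94 FPKM in obstructed kidneys, against 3.68, 3.27 and 3.19 FPKM in sham kidneys and did not pass (-0.10 ± 0.25, adjusted p = 0.742). The Nphs1 groups overlapped. Clic5, a chloride channel protein of podocyte foot processes, differed by -1.75 ± 0.18, adjusted p = 1.83e-07, and Tcf21, a transcription factor of podocytes and stromal cells, by 2.19 ± 0.26, adjusted p = 1.13e-06. Endothelial genes rose in 13 of 16 cases with none lower (median 1.12). Vwf, the clotting carrier von Willebrand factor, had 1.87, 7.91 and 11 FPKM in obstructed kidneys, against 0.351, 1.02 and 0 FPKM in sham kidneys (2.33 ± 0.39, adjusted p = 5.62e-05). Its obstructed values spread widely and stayed above the sham values. Plvap, the diaphragm protein of fenestrated endothelium, differed by 1.60 ± 0.24, adjusted p = 1.87e-05 and Eng, endoglin, by 1.60 ± 0.27, adjusted p = 5.50e-05. Kdr, the main VEGF receptor, did not pass (-0.42 ± 0.21, adjusted p = 0.0899). Without sham UNC569 library 2 it passed as lower (-0.60, adjusted p = 0.0349; over all alternatives the adjusted p was 0.0349 to 0.351).

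**Figure D4:**
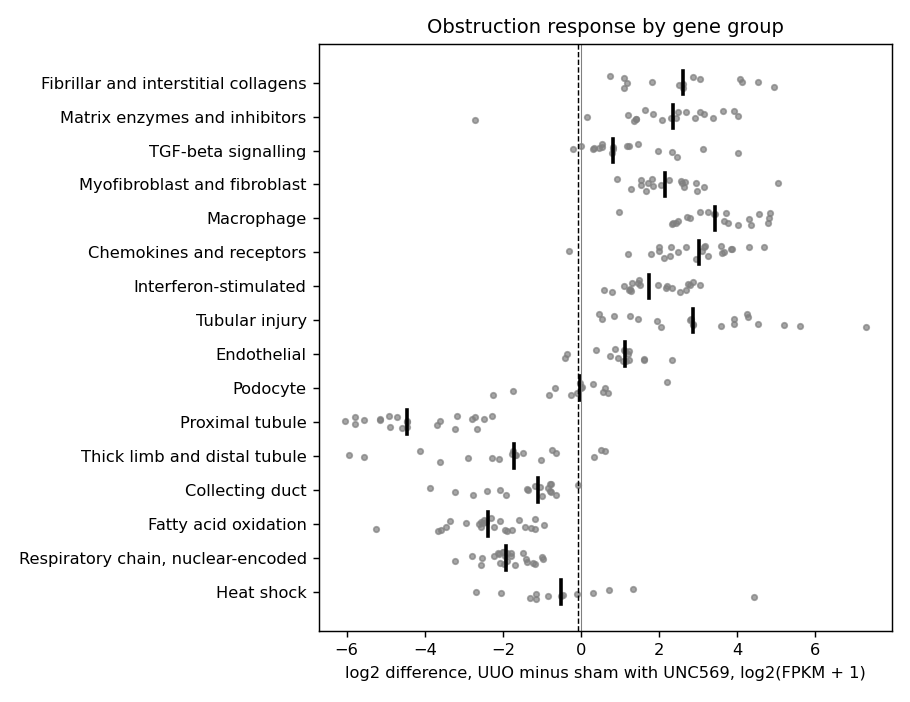
Log2 differences (obstructed minus sham with UNC569, horizontal axis, log2(FPKM + 1)) of the tested members of 16 gene groups; each grey point is a gene, the black mark is the group median and the dashed line the median of all genes. Macrophage, chemokine and collagen genes lie right of 0, and proximal tubule and fatty acid oxidation genes lie left.

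Genes of oxidative metabolism fell. All 24 of 24 fatty acid oxidation genes passed as lower (median -2.38). Acadm, the mitochondrial enzyme for medium chains, had 65.4, 72.6 and 89.6 FPKM in obstructed kidneys, against 784, 838 and 751 FPKM in sham kidneys (-3.35 ± 0.19, adjusted p = 2.06e-10). Acot12, an acetyl-CoA thioesterase, differed by -3.59 ± 0.22, adjusted p = 6.16e-10. Acadm was lower in each obstructed kidney than in any sham kidney.

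All 24 of 24 nuclear genes of the respiratory chain fell (median -1.91), and 12 of 13 mitochondrially encoded ones did (median -2.61). Uqcrfs1, the iron-sulphur subunit of complex III, had 115, 128 and 142 FPKM in obstructed kidneys, against 816, 748 and 735 FPKM in sham kidneys (-2.58 ± 0.13, adjusted p = 5.72e-11). Atp5a1 and Atp5b, the catalytic part of ATP synthase, differed by -2.54 ± 0.16, adjusted p = 7.44e-10, and by -2.80 ± 0.18, adjusted p = 9.84e-10. Among mitochondrial genes, mt-Nd6 differed by -3.14 ± 0.20, adjusted p = 8.53e-10, mt-Co3 by -2.37 ± 0.18, adjusted p = 7.00e-09 and mt-Atp6 by -2.43 ± 0.22, adjusted p = 4.88e-08. Reads of the mitochondrially encoded genes can also match nuclear copies of mitochondrial DNA, and how such reads were assigned was not given in the sources used here.

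In the list of gluconeogenesis and the TCA cycle, 13 of 14 genes fell (median -2.17) and Pck2, the mitochondrial form of Pck1, rose (0.61 ± 0.12, adjusted p = 4.06e-04). Suclg1, a subunit of succinyl-CoA ligase, fell by 4.10 on the log2 scale. Of 16 glycolysis genes, 9 were lower and 2 higher (median -0.56), against 34.5% and 27.5% of all genes. After median-of-ratios scaling 8 were lower and 4 higher. Gapdh, Tpi1 and Pgk1 of the shared lower pathway differed by -1.79 ± 0.16, adjusted p = 2.54e-08, by -1.62 ± 0.14, adjusted p = 3.18e-08 and by -1.70 ± 0.15, adjusted p = 3.59e-08. Hk2, the inducible hexokinase that starts glycolysis, had 4.09, 9.04 and 13.6 FPKM in obstructed kidneys, against 1.28, 0.0938 and 0.241 FPKM in sham kidneys (2.66 ± 0.28, adjusted p = 2.59e-07). Pfkp, a phosphofructokinase form, differed by 0.86 ± 0.15, adjusted p = 9.56e-05. Of 22 genes of amino acid and tubular metabolism, 20 fell and 1 rose (median -3.05). Kmo and Acmsd, enzymes of tryptophan breakdown, differed by -3.64 ± 0.19, adjusted p = 8.45e-11, and by -5.09 ± 0.34, adjusted p = 1.49e-09. Cyp27b1, which makes active vitamin D, was the member that rose (1.00 ± 0.32, adjusted p = 0.0122). The Cyp27b1 call was lost without sham UNC569 library 1 or 2 (at 0.76 to 0.86 there, with an adjusted p of 0.00211 to 0.0891 over all alternatives).

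Of 21 oxidant defence and iron genes, 16 fell and 1 rose (median -1.58). Sod2, the mitochondrial superoxide dismutase, had 4.57, 7.40 and 9.67 FPKM in obstructed kidneys, against 80.5, 60.8 and 62.4 FPKM in sham kidneys (-3.08 ± 0.20, adjusted p = 9.84e-10). Cat, catalase, differed by -2.94 ± 0.21, adjusted p = 2.88e-09 and Fth1, ferritin heavy chain, by -2.67 ± 0.21, adjusted p = 1.04e-08. Mt2, a metal-binding metallothionein, rose with 37.7, 59.9 and 84.2 FPKM in obstructed kidneys, against 14.7, 15.2 and 19.2 FPKM in sham kidneys (1.79 ± 0.30, adjusted p = 5.48e-05). Of 19 cholesterol and fatty acid synthesis genes, 12 fell and 4 rose (median -0.54). The 3 with the smallest p were Cyp51 (-2.86 ± 0.16, adjusted p = 2.66e-10), Hmgcs1 (-2.66 ± 0.20, adjusted p = 4.16e-09) and Scd1 (-2.32 ± 0.27, adjusted p = 9.75e-07), all enzymes of lipid synthesis. Among those that rose were the sterol enzymes Fdft1 (0.46 ± 0.12, adjusted p = 0.00399) and Fdps (0.84 ± 0.19, adjusted p = 9.82e-04), and the regulator Srebf1 (0.82 ± 0.16, adjusted p = 1.94e-04).

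All 10 of 10 genes of the renin-angiotensin system fell (median -1.36). Anpep, an aminopeptidase that trims angiotensins, had 12.6, 13.5 and 13.9 FPKM in obstructed kidneys, against 52, 47 and 50.9 FPKM in sham kidneys (-1.83 ± 0.098, adjusted p = 1.18e-10). Ace, the converting enzyme, had 9.08, 10.8 and 16.6 FPKM in obstructed kidneys, against 41.2, 53.7 and 53.9 FPKM in sham kidneys (-1.99 ± 0.21, adjusted p = 2.09e-07). The obstructed values of both enzymes were well under the sham values. Mas1, the receptor for angiotensin 1-7, differed by -1.72 ± 0.17, adjusted p = 1.37e-07. Ren1, renin, had 1.66, 7.79 and 11.3 FPKM in obstructed kidneys, against 39.1, 37.4 and 35.1 FPKM in sham kidneys (-2.30 ± 0.62, adjusted p = 0.00391). Among growth factors of repair, 8 of 19 fell and 5 rose (median -0.22), or 6 and 6 after median-of-ratios scaling. The shares over all genes were 34.5% lower and 27.5% higher as deposited. Kl, the anti-ageing FGF23 co-receptor klotho, had 10.2, 11.6 and 27.6 FPKM in obstructed kidneys, against 269, 225 and 251 FPKM in sham kidneys (-4.12 ± 0.32, adjusted p = 5.96e-09). Fgf1, a fibroblast growth factor, differed by -2.36 ± 0.18, adjusted p = 4.67e-09. Wnt4, a Wnt ligand of kidney development, had 8.27, 14.8 and 27.1 FPKM in obstructed kidneys, against 0.798, 0.865 and 0.626 FPKM in sham kidneys (3.19 ± 0.26, adjusted p = 1.36e-08). Wnt7b (1.98 ± 0.36, adjusted p = 1.28e-04), Bmp2 (1.34 ± 0.25, adjusted p = 1.82e-04) and Grem1 (0.84 ± 0.19, adjusted p = 9.19e-04), a BMP antagonist, also rose. Areg, an EGF receptor ligand, had 0.135, 0.818 and 2.09 FPKM in obstructed kidneys and was listed at 0 in all 3 sham kidneys, so no fold is given (adjusted p = 0.00483). It is counted among the 5, but its values are low and it passed the filter only through obstructed kidneys. That fixes its direction, so no result is read from its call.

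Cell cycle genes rose in 15 of 21 cases and fell in none (median 0.80). Mcm3 and Mcm2, of the DNA-unwinding helicase, differed by 2.28 ± 0.17, adjusted p = 5.40e-09, and by 0.82 ± 0.13, adjusted p = 4.65e-05, and Aurkb, a mitotic kinase, by 1.37 ± 0.22, adjusted p = 2.93e-05. Of 18 p53 targets and cell cycle inhibitors, 10 rose and 3 fell (median 0.70). Cdkn1a, the inhibitor p21, had 28.6, 47 and 53.5 FPKM in obstructed kidneys, against 4.61, 8.80 and 5.32 FPKM in sham kidneys (2.64 ± 0.22, adjusted p = 1.73e-08), again without overlap. Gadd45b, a stress sensor, differed by 2.46 ± 0.16, adjusted p = 7.58e-10 and Phlda3, an AKT inhibitor, by 2.08 ± 0.18, adjusted p = 2.04e-08. The members that fell were Ccng1 (-1.70 ± 0.23, adjusted p = 6.05e-06), Sesn2 (-1.46 ± 0.20, adjusted p = 6.99e-06) and Perp (-1.53 ± 0.20, adjusted p = 3.64e-06).

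Immediate early genes rose in 15 of 18 cases (median 1.37), among them Maff (2.98 ± 0.19, adjusted p = 1.01e-09), Klf6 (2.42 ± 0.20, adjusted p = 1.19e-08) and Fosl2 (2.01 ± 0.17, adjusted p = 1.55e-08), all transcription factors. Of 18 genes of the unfolded protein and integrated stress responses, 4 rose and 5 fell (median 0.20), or 8 and 5 after median-of-ratios scaling. As deposited, 27.5% of all genes rose and 34.5% fell, so 4 and 5 of 18 are no larger shares. Atf3, a stress-induced transcription factor, had 13.8, 15.2 and 19.1 FPKM in obstructed kidneys, against 2.46, 1.41 and 0 FPKM in sham kidneys (3.04 ± 0.34, adjusted p = 5.15e-07). Trib3 (1.23 ± 0.24, adjusted p = 2.63e-04), Atf4 (0.76 ± 0.13, adjusted p = 7.00e-05) and Asns (0.69 ± 0.18, adjusted p = 0.00340), which belong to the amino acid arm of the response, also rose. Edem1, which sends misfolded proteins to degradation, differed by -1.30 ± 0.13, adjusted p = 2.07e-07 and the serine enzyme Psat1 by -1.75 ± 0.20, adjusted p = 6.99e-07.

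Of 13 heat shock chaperone genes, 8 were lower and 3 higher (median -0.51), against 34.5% and 27.5% of all genes. So 3 of 13 higher is no larger share. After median-of-ratios scaling 6 were lower and 3 higher, and 6 to 8 were lower without 1 library. Hspb1, the small heat shock protein HSP27 that steadies actin, had 511, 575 and 605 FPKM in obstructed kidneys, against 24.2, 25.6 and 27.4 FPKM in sham kidneys (4.42 ± 0.14, adjusted p = 2.97e-13). Hspa1b, the inducible HSP70 (1.32 ± 0.31, adjusted p = 0.00116), and its partner Bag3 (0.72 ± 0.13, adjusted p = 9.26e-05) also rose. Hspd1 and Hspe1, the chaperonin of mitochondria, differed by -2.70 ± 0.17, adjusted p = 6.61e-10, and by -2.06 ± 0.27, adjusted p = 2.94e-06. Hspa1a and Hspa1b are near-identical copies that can share reads, so the value of either is uncertain.

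Clock genes, whose transcripts cycle through the day, rose in 5 of 16 cases and fell in 8 (median -0.60), against 27.5% and 34.5% of all genes. The time of day of collection was not given in the sources used here. Hlf, an output factor that controls metabolic genes, had 1.72, 2.34 and 4.51 FPKM in obstructed kidneys, against 75.3, 35.7 and 39.8 FPKM in sham kidneys (-3.84 ± 0.25, adjusted p = 1.01e-09). Tef, its relative, had 30.2, 40.8 and 93 FPKM in obstructed kidneys, against 258, 155 and 179 FPKM in sham kidneys (-2.06 ± 0.30, adjusted p = 1.30e-05). Both were below the sham range in every obstructed kidney. Cry2, a core repressor, differed by -1.02 ± 0.19, adjusted p = 1.51e-04. Arntl, the core activator BMAL1, had 0.681, 3.00 and 3.28 FPKM in obstructed kidneys, against 0.914, 0.571 and 0.527 FPKM in sham kidneys (0.94 ± 0.26, adjusted p = 0.00450), and its lowest obstructed value fell among the sham values. Npas2 (1.24 ± 0.36, adjusted p = 0.00607), Cry1 (0.64 ± 0.16, adjusted p = 0.00220), Bhlhe40 (0.57 ± 0.17, adjusted p = 0.00595) and Nfil3 (1.20 ± 0.24, adjusted p = 3.31e-04) also rose. The Npas2 call was lost without sham UNC569 library 2 (at 0.96 there, with an adjusted p of 0.00103 to 0.0553 over all alternatives).

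Markers of tissue beside the kidney were also measured. Of 9 urothelial genes, 6 rose (median 1.75). Krt5, a keratin of basal cells, had 7.45, 25.2 and 59.1 FPKM in obstructed kidneys, against 0, 0.896 and 0.777 FPKM in sham kidneys (4.10 ± 0.60, adjusted p = 1.18e-05), and Psca (3.24 ± 0.65, adjusted p = 3.37e-04) and Upk2 (2.57 ± 0.59, adjusted p = 0.00114), a plaque protein of the bladder surface, were higher too. The summed FPKM of the urothelial list ran between 18 and 238 in obstructed and between 2.58 and 19 in sham kidneys, so the groups overlapped in this measure. Adipocyte genes fell in 4 of 5 cases, and Adipoq, the fat hormone adiponectin, had 0, 0.222 and 0.868 FPKM in obstructed kidneys, against 10.2, 7.19 and 5.86 FPKM in sham kidneys (-2.73 ± 0.59, adjusted p = 6.27e-04). The summed adipocyte list ran between 31.1 and 83 FPKM in obstructed and between 66.5 and 147 FPKM in sham kidneys. Plin1 and Cidec, fat droplet proteins, differed by -1.37 ± 0.26, adjusted p = 1.61e-04, and by -2.17 ± 0.48, adjusted p = 8.25e-04. Of 10 hepatocyte genes, 3 fell, namely Ttr (-3.71 ± 0.25, adjusted p = 1.23e-09), Apob (-2.60 ± 0.28, adjusted p = 4.15e-07) and Hrg (-0.97 ± 0.35, adjusted p = 0.0241), and Fgb rose (1.63 ± 0.69, adjusted p = 0.0474). Ttr and Apob are made in kidney too. With 34.5% of all genes lower and 27.5% higher, 3 and 1 of 10 hepatocyte genes are no larger shares. The summed hepatocyte list ran between 34.8 and 67.1 FPKM in obstructed and between 106 and 117 FPKM in sham kidneys. The Hrg call was lost without obstructed libraries 4 and 5 together and without sham UNC569 library 1 or 2 (at -0.96 to -0.86 there, with an adjusted p of 0.00531 to 0.0940 over all alternatives). The Fgb call was lost with no filter on low values, without obstructed libraries 4 and 5 together and without obstructed UNC569 library 1, 3, 4 or 6 or sham UNC569 library 0, 1 or 2 or obstructed DMSO library 0, 1, 2 or 3 (at 1.34 to 1.86 there, with an adjusted p of 7.05e-04 to 0.168 over all alternatives). No skeletal or heart muscle gene passed the filter, and neither adrenal gene tested passed as changed. Of 4 sex-linked genes tested, 1 was lower, against 34.5% of all genes. The part of urothelium, fat or liver-type transcripts in the results above was not tested.

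The obstruction response with UNC569 was set against the same response with DMSO, in separate libraries. With DMSO, 4560 genes (29.7%) passed as higher and 3957 (25.8%) as lower. Genes higher in both responses numbered 3033, which is 71.8% of those with UNC569 and 66.5% of those with DMSO. Genes lower in both numbered 3087, which is 58.3% of those with UNC569 and 78% of those with DMSO. Passing in one response and not the other is no test of a difference, so the responses were compared by an interaction term in the same limma fit. This term passed for 947 genes (6.17%) with a higher and for 2053 (13.4%) with a lower response under UNC569. Median-of-ratios scaling gave 1437 and 1458, so this split depends on the scaling. Leaving out 1 sham library moved these counts by over 1.5 times. The higher count was 606 without sham UNC569 library 1, 536 without sham UNC569 library 2, 607 without sham DMSO library 1 and 556 without sham DMSO library 2. The lower count was 1356 without sham DMSO library 1. Without obstructed UNC569 libraries 4 and 5 the counts were 1109 higher and 2235 lower.

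Between UNC569 and DMSO, obstructed kidneys differed for 38 genes higher (0.248%) and 161 lower (1.05%), 1.3% of those tested. Sham kidneys differed between UNC569 and DMSO for 2033 genes higher (13.3%) and 928 lower (6.05%), 19.3% in all, or 1253 and 1559 after median-of-ratios scaling. The sham comparison has 3 libraries against 3 and the obstructed one 7 against 4. Of the 3000 genes that passed the difference test, 2150 (71.7%) also differed between the sham groups. Between the obstructed groups 122 of them (4.07%) did. These calls use the libraries of the difference test itself. The labels name no batch for these libraries.

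The smallest p for the difference was that of Hspb1. It had 511, 575 and 605 FPKM in obstructed kidneys and 24.2, 25.6 and 27.4 FPKM in sham kidneys with UNC569, and 454, 422, 557 and 437 FPKM in obstructed and 155, 126 and 213 FPKM in sham kidneys with DMSO. Its response was 4.42 with UNC569 and 1.52 with DMSO, a difference of 2.89 ± 0.20, adjusted p = 7.22e-07. Its obstructed values overlapped between the arms, and its sham values were lower with UNC569. Hsph1, a large HSP110 chaperone, had 11.2, 14.6 and 16.3 FPKM in obstructed and 24.4, 17.6 and 18.3 FPKM in sham kidneys with UNC569, and 10.2, 10.6, 7.34 and 11.2 FPKM in obstructed and 77, 49.9 and 79.2 FPKM in sham kidneys with DMSO. Its response was -0.47 with UNC569 and -2.67 with DMSO, a difference of 2.20 ± 0.25, adjusted p = 1.59e-04. The call of a fall of Hsph1 with UNC569 (-0.47 ± 0.16, adjusted p = 0.0200) was lost under median-of-ratios scaling and without sham UNC569 library 0 (at -0.33 to -0.24 there, with an adjusted p of 0.00997 to 0.149 over all alternatives).

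Of 13 heat shock genes, 7 had a higher response with UNC569 and none a lower one (median difference 0.79), against -0.13 for all genes. The shares over all genes were 6.17% higher and 13.4% lower. Between UNC569 and DMSO, the median log2 difference of the list was 0.051 in obstructed and -0.73 in sham kidneys. In the sham kidneys 8 were lower with UNC569, against 6.05% of all genes. These values come from the libraries of the difference test itself. Over all genes the medians were -0.031 in obstructed and 0.073 in sham kidneys. The heat shock element (HSE), GAA, TTC and GAA with 2 bases between each, searched on both strands, was in 3 of 10 list members with a promoter entry (30%), against 0.6623% of all genes with one. Of these, Hspd1 and Hspe1 have overlapping windows and share the same site, which is counted for both. The window of Hsph1 at chr5:149636287-149636586 (- strand), from RefSeq on GRCm38.p6, is given because Hsph1 was among the 5 genes with the smallest p of the difference and holds a match, with the HSE letters in capitals.
Hsph1: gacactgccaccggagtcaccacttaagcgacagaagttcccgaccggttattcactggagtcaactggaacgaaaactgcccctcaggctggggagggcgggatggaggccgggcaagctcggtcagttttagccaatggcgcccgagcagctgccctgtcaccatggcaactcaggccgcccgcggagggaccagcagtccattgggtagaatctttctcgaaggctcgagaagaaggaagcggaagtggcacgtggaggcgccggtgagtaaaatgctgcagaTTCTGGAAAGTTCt

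The other 3 genes with the smallest p were Cmtm6, Zbtb7a and Rab43. Cmtm6, which keeps PD-L1 at the cell surface, had responses of -2.17 with UNC569 and -0.71 with DMSO, a difference of -1.45 ± 0.16, adjusted p = 1.59e-04. Zbtb7a, a transcriptional repressor, had -0.55 and 0.84, a difference of -1.40 ± 0.15, adjusted p = 1.59e-04. Rab43, a GTPase of vesicle traffic, had -0.11 and 1.48, a difference of -1.58 ± 0.18, adjusted p = 1.59e-04. Its response with UNC569 did not pass (-0.11 ± 0.12, adjusted p = 0.447) and changed sign under median-of-ratios scaling (0.12, adjusted p = 0.468; over all alternatives the adjusted p was 0.0737 to 0.956).

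**Figure D5:**
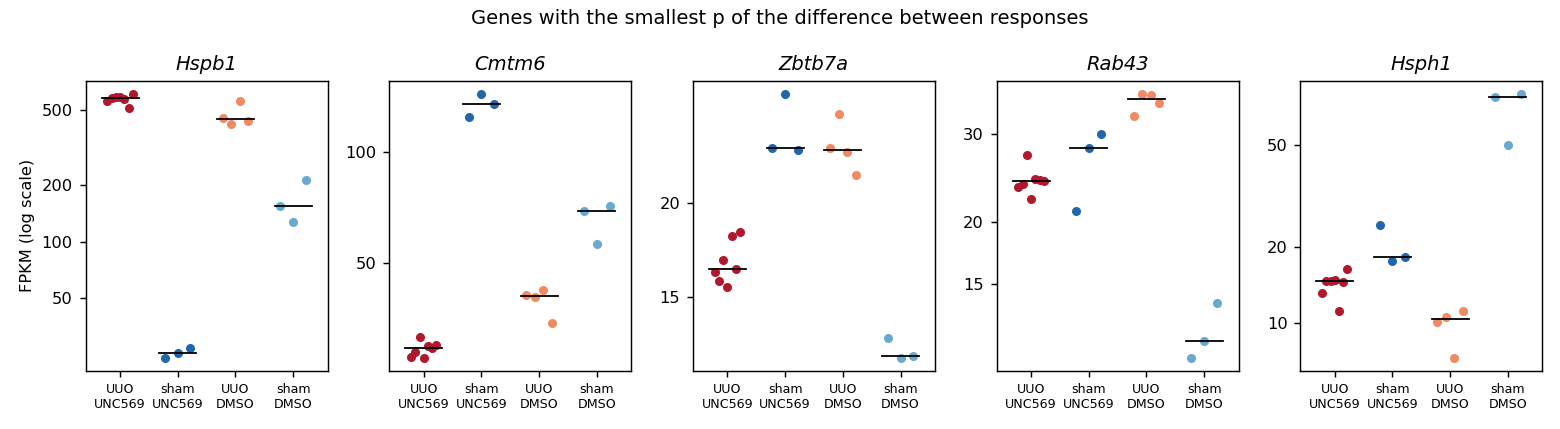
FPKM (log axis) in each library of the 4 kidney groups for the 5 genes with the smallest p of the difference between responses; groups run UUO with UNC569, sham with UNC569, UUO with DMSO and sham with DMSO, and short lines are group medians. The sham groups differ more between UNC569 and DMSO than the obstructed groups for Hspb1 and Hsph1.

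Of 16 endothelial genes, 7 had a higher response and none a lower one (median difference 0.96). Over all genes 6.17% had a higher and 13.4% a lower response, shares that stand beside each such count below. With DMSO the same genes passed as higher in 4 cases and as lower in 4, against 29.7% and 25.8% of all genes. Between UNC569 and DMSO, the median log2 difference of these genes was -0.23 in obstructed and -1.10 in sham kidneys. In the sham kidneys 13 were lower with UNC569, against 6.05% of all genes, a share that also stands beside the sham counts below. Plvap differed in response by 1.31 ± 0.36, adjusted p = 0.0188 and Eng by 1.47 ± 0.40, adjusted p = 0.0178. The Plvap call was lost without sham UNC569 library 2 or sham DMSO library 2 (at 0.95 to 1.21 there, with an adjusted p of 0.00585 to 0.0593 over all alternatives). The Eng call was lost without sham UNC569 library 2 or sham DMSO library 1 (at 1.09 to 1.31 there, with an adjusted p of 0.00694 to 0.0579 over all alternatives). Of 18 unfolded protein and integrated stress genes, 9 had a higher response and 1 a lower one. Among the higher ones was Atf4, which differed in response by 1.36 ± 0.19, adjusted p = 5.10e-04. With UNC569 set against DMSO, the stress list had a median of 0.038 in obstructed and -0.66 in sham kidneys, with 10 lower there. Of the macrophage list, 6 of 21 had a higher response, among them C1qa (1.23 ± 0.30, adjusted p = 0.00944) and C1qc (0.95 ± 0.25, adjusted p = 0.0153). The macrophage list had a median of -0.14 between UNC569 and DMSO in obstructed and -0.62 in sham kidneys, with 9 lower there. Of 14 collagens, 1 had a higher and 1 a lower response, shares near the 6.17% and 13.4% of all genes. The higher one was that of Col16a1 (1.40 ± 0.37, adjusted p = 0.0147). The responses of Col1a1 (-0.14 ± 0.55, adjusted p = 0.879), Acta2 (1.28 ± 0.70, adjusted p = 0.208) and Axl (0.40 ± 0.33, adjusted p = 0.417) did not pass the difference test. Without obstructed UNC569 libraries 4 and 5 the Acta2 difference passed (1.79, adjusted p = 0.0200).

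The adipocyte list went the other way, with 4 of 5 genes lower in response, against 13.4% of all genes. Adipoq had 0, 0.222 and 0.868 FPKM in obstructed and 10.2, 7.19 and 5.86 FPKM in sham kidneys with UNC569, and 1.82, 2.16, 1.51 and 16.8 FPKM in obstructed and 0, 6.74 and 0 FPKM in sham kidneys with DMSO. Each sham kidney with UNC569 held more of it than any obstructed kidney with UNC569, while with DMSO the groups overlapped and single libraries of either group were high. Hepatocyte genes had a higher response in 6 of 10 cases, against 6.17% of all genes. With DMSO 9 of them fell, against 25.8% of all genes. The summed hepatocyte list stood at 416, 118 and 465 FPKM in sham DMSO libraries 0, 1 and 2. In the sham kidneys with UNC569 it stood at 106, 117 and 112 FPKM. How far these list counts rest on sham DMSO libraries 0 and 2 was not tested. Of single members, Hrg lost its difference call without library 0 or library 2 (1.55 and 1.66). In sham kidneys 7 hepatocyte genes were lower and 3 adipocyte genes higher with UNC569 than with DMSO. The shares over all genes there were 6.05% lower and 13.3% higher. Clock genes had a higher response in 4 and a lower one in 7 of 16 cases, against 6.17% and 13.4% of all genes. Arntl had 0.681, 3.00 and 3.28 FPKM in obstructed and 0.914, 0.571 and 0.527 FPKM in sham kidneys with UNC569, and 1.66, 1.85, 2.07 and 2.08 FPKM in obstructed and 4.46, 4.99 and 5.44 FPKM in sham kidneys with DMSO (1.97 ± 0.39, adjusted p = 0.00288). Hlf differed in response by -1.75 ± 0.37, adjusted p = 0.00489 and Cry2 by -1.46 ± 0.28, adjusted p = 0.00265. Fatty acid oxidation genes had a lower response in 6 of 24 cases and none a higher one, against 13.4% and 6.17% of all genes.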

How the data were processed

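RNA-seq of mouse kidney was analysed in 17 libraries (UUO with UNC569, 7; sham with UNC569, 3; UUO with DMSO, 4; sham with DMSO, 3), in columns tied to groups by their names. Per the labels' protocols, libraries were made with TruSeq version 2, unstranded, and sequenced on a Illumina HiSeq instrument with reads of 100 bases. The authors deposited FPKM per gene; the tool that computed the FPKM and its filters were not given in the sources used here. The submitters' processing notes name FastQC, Trim Galore, STAR, edgeR, hg38 and mm10, without versions or roles. The table holds 38277 genes, of which 94.9% matched the GENCODE vM21 annotation of GRCm38 by ID. Without strand, reads of a gene and its antisense partner cannot be told apart. Depth is unknown.

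FPKM was taken as log2(FPKM + 1). Genes at 1 FPKM or more in at least 3 libraries (15338) were fitted with limma 3.58.1 in R 4.3.3, 1 mean per group, an intensity-dependent prior and Benjamini-Hochberg adjustment; the difference of responses was an interaction term. The fit was tested on simulated data. The 45 lists hold 740 symbols, all matched. Members and lists were chosen with earlier results of these data known. In each list the 3 genes with the smallest p and those against its majority were named. The 8 largest rises and falls at a group mean of 10 FPKM or more and without overlap of the groups were named too. So were the TAM genes and the 5 smallest p of the difference. Timp1, Trem2, Mfge8, Ccl2, C3, Acta2, Aqp2, Krt20, Sox9, Ren1, Isg15 and others outside this rule were named after their values were seen. A few genes that the rule takes are not reported here. Principal components were computed on the tested genes, and promoters of RefSeq GRCm38.p6 were searched for 4 motifs. Alternatives were a pseudocount of 0.1, no filter, a filter of 5 FPKM, median-of-ratios scaling, a fit of the UNC569 groups alone and leaving out each library; leaving out obstructed libraries 4 and 5 was added after the data were seen.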

Additional observations from a re-analysis of the deposited data

Results flagged for a closer look

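The obstruction response differed between UNC569 and DMSO for 49 of the 189 genes named, by the interaction term in limma with a Benjamini-Hochberg adjusted p below 0.05. Over all genes tested the same term passed for 3000 of 15338 (19.6%). Of the named genes, 5 were chosen by this test and others after their values were seen. The count of 49 is therefore no result about the named genes as a set. The values in brackets are log2 differences of the 2 responses, UNC569 minus DMSO, on the log2(FPKM + 1) scale. Such a difference can lie in the sham or in the obstructed kidneys. Over all genes with this call, 71.7% also differed between the sham groups and 4.07% between the obstructed groups. The response was higher with UNC569 for S100a9 (2.97), Hspb1 (2.89), Hspa1b (2.34), Hsph1 (2.20), Arntl (1.97), Hrg (1.90), Fdps (1.76), Npas2 (1.70) and Lcn2 (1.51). It was also higher for Eng (1.47), Col16a1 (1.40), Atf4 (1.36), Nfil3 (1.31), Plvap (1.31), C1qa (1.23), Tgfbi (1.19), Vcam1 (1.14) and Cry1 (1.11). Smaller positive differences were those of Mfge8 (1.05), Bst2 (1.03), Apoe (0.99), C1qc (0.95), Bag3 (0.79), Gas6 (0.62) and Cd14 (0.61). The response was lower with UNC569 for Adipoq (-3.90), Ugt3a1 (-3.21), Cidec (-3.05), Aqp3 (-2.25), D630029K05Rik (-2.12), Calb1 (-1.97), Hlf (-1.75), Rab43 (-1.58) and Plin1 (-1.56). It was also lower for Cry2 (-1.46), Cmtm6 (-1.45), Zbtb7a (-1.40), Lipa (-1.39), Cr1l (-1.38), Gatm (-1.37), Perp (-1.09), Igfbp7 (-1.02) and Timp3 (-0.94). Smaller negative differences were those of Clic5 (-0.92), Edem1 (-0.88), Kmo (-0.88), Mas1 (-0.82), Bhlhe40 (-0.78) and Anpep (-0.45).

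Of these 49 calls, 17 were lost in a fit without 1 library, and the log2 differences left are given after each. Anpep lost its call without obstructed UNC569 library 3 or 6 or sham UNC569 library 0 or 2 or obstructed DMSO library 0, 1, 2 or 3 or sham DMSO library 1 (-0.47 to -0.36). Bhlhe40 lost its call without obstructed UNC569 library 6 or sham UNC569 library 0, 1 or 2 or obstructed DMSO library 0 or 2 or sham DMSO library 1 (-0.83 to -0.49). Calb1 lost its call without sham UNC569 library 1 or 2 or obstructed DMSO library 0 or 1 or sham DMSO library 1 or 2 (-1.94 to -1.60). Cd14 lost its call without sham UNC569 library 0 or sham DMSO library 1 (0.48 to 0.52). Clic5 lost its call without sham UNC569 library 0 or sham DMSO library 1 (-0.85 to -0.75). D630029K05Rik lost its call without sham UNC569 library 1 or 2 or obstructed DMSO library 0 or 1 or sham DMSO library 1 or 2 (-2.11 to -1.63). Eng lost its call without sham UNC569 library 2 or sham DMSO library 1 (1.09 to 1.31). Gas6 lost its call without sham UNC569 library 1 or 2 or obstructed DMSO library 2 or 3 or sham DMSO library 2 (0.52 to 0.61). Gatm lost its call without obstructed UNC569 library 1, 4 or 6 or sham UNC569 library 0, 1 or 2 or obstructed DMSO library 0, 1 or 3 or sham DMSO library 1 or 2 (-1.47 to -0.99). Hrg lost its call without sham DMSO library 0 or 2 (1.55 to 1.66). Kmo lost its call without obstructed UNC569 library 1 or 3 or sham UNC569 library 0, 1 or 2 or obstructed DMSO library 0, 1 or 3 or sham DMSO library 1 or 2 (-0.90 to -0.77). Lcn2 lost its call without sham UNC569 library 0 or 2 or obstructed DMSO library 3 or sham DMSO library 0 or 2 (1.09 to 1.53). Mas1 lost its call without sham UNC569 library 1 or 2 or obstructed DMSO library 0 or 1 or sham DMSO library 0 or 2 (-0.80 to -0.71). Nfil3 lost its call without sham DMSO library 1 (1.00). Npas2 lost its call without sham UNC569 library 0 or 2 or obstructed DMSO library 0 or 3 or sham DMSO library 1 (1.23 to 1.73). Plvap lost its call without sham UNC569 library 2 or sham DMSO library 2 (0.95 to 1.21). Vcam1 lost its call without sham UNC569 library 2 (0.94). With a pseudocount of 0.1 the calls of D630029K05Rik (-2.20), Hrg (2.80), Kmo (-0.98), Mas1 (-1.38) and Ugt3a1 (-3.72) were lost. With no filter those of Apoe (0.99), D630029K05Rik (-2.12), Gatm (-1.37), Kmo (-0.88), Lcn2 (1.51) and Npas2 (1.70) were lost. Under median-of-ratios scaling those of Anpep (-0.29), Bhlhe40 (-0.61), D630029K05Rik (-1.94), Gatm (-1.20), Kmo (-0.71) and Mas1 (-0.69) were.

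Within the obstructed groups, of 7 and 4 libraries, 24 of 214 sets of values had 1 library apart from the others by Dixon's test, where chance gives about 1 in 20. Obstructed UNC569 library 5 stood apart as the highest for Acmsd (2.19, next 0.716 FPKM), Atp5b (625, next 431 FPKM), Cat (120.3, next 73.5 FPKM), G6pc (10.6, next 5.65 FPKM), Gatm (29.7, next 17.6 FPKM), Hlf (4.51, next 2.73 FPKM) and Kl (27.6, next 16.7 FPKM). Library 5 was also apart for Lrp2 (19.7, next 12.1 FPKM), Serpina10 (71, next 51.2 FPKM), Slc22a8 (6.30, next 2.52 FPKM) and Suclg1 (16.1, next 6.05 FPKM). Obstructed UNC569 library 1 stood apart as the highest for Mertk (18.3, next 12.9 FPKM), Pvalb (0.162, next 0 FPKM) and Trpm6 (2.93, next 1.92 FPKM). Obstructed UNC569 library 2 stood apart as the highest for Col18a1 (166, next 145 FPKM) and Rab43 (27.3, next 24.4 FPKM). Obstructed UNC569 library 2 had the lowest mitochondrially encoded share of summed FPKM (5.49%, next 9.09%). Obstructed UNC569 library 4 stood apart as the highest for Cyp27b1 (16.8, next 9.97 FPKM), Gadd45b (60.5, next 47.2 FPKM) and Mas1 (0.615, next 0.251 FPKM). Obstructed UNC569 library 3 stood apart as the highest for Ighm (26.7, next 21.9 FPKM). Obstructed UNC569 library 6 stood apart as the lowest for Bhlhe40 (77.2, next 87.3 FPKM). Obstructed DMSO library 3 stood apart as the highest for Adipoq (16.8, next 2.16 FPKM). Obstructed DMSO library 3 stood apart as the lowest for Acta2 (73.7, next 138 FPKM). Library 5 is one of the pair that stood nearer to the sham kidneys on the first principal component.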

How the results depend on the processing

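The counts of the obstruction response with UNC569 stayed within 1.5 times of 4224 higher and 5294 lower under a pseudocount of 0.1, no filter, a filter of 5 FPKM, a fit of the UNC569 groups alone (4035 and 5093), median-of-ratios scaling (5352 and 4217) and without 1 library (3567 to 4311 higher, 4566 to 5295 lower). The count of genes with a higher response under UNC569 than DMSO, 947 as deposited, was 1437 under median-of-ratios scaling and 536 to 1192 without 1 library, and the lower count, 2053, was 1356 to 2253 without 1 library. Of 1012 list counts over the alternatives, 1000 stayed within 1.5 times, and 43 of 44 did without obstructed libraries 4 and 5, a set left out after the values were seen. The exceptions were adrenal genes higher (1 with a pseudocount of 0.1, with no filter, without obstructed libraries 4 and 5, and up to 1 from 0 without 1 library), neutrophil genes higher (5 with no filter), T and NK cell genes higher (8 with a filter of 5 FPKM), cell cycle genes higher (7 with that filter), sex-linked genes lower (0 with that filter, 0 to 2 without 1 library) and podocyte genes higher (2 to 5 without 1 library). For the filters, fewer or more genes were tested; elsewhere the cause was not tested. Under median-of-ratios scaling the log2 difference changed sign for Igfbp7 (0.077), Il18 (0.035), Nphs1 (0.079), Rab43 (0.12) and Smad7 (0.027), none of which passed. Il18 also changed sign without sham UNC569 library 2 (0.10, range -0.25 to 0.10 without 1 library) and Cxcl12 without obstructed libraries 4 and 5 (0.13). The difference of responses of Col1a1, which did not pass, changed sign with a pseudocount of 0.1 (0.0071), without obstructed UNC569 library 5 (0.062), without sham UNC569 library 0 (0.00012), without sham DMSO library 0 (0.046, range -0.34 to 0.062 without 1 library) and without obstructed libraries 4 and 5 (0.23). Over the fits without 1 library, 3176 values of the named genes kept side and direction, 32 lost the call, 4 gained one and 1 changed sign; for the difference these numbers were 799, 82, 0 and 3. No paired analysis was possible because the columns carry no replicate number that the labels tie to a sample, and 7 columns stand for 8 labelled samples in 1 group. Depth is unknown, so no counting interval can be given and values listed at 0 have no floor.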
